A study of Homo sapiens with 4 samples.

Results

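The 10 genes described here encode ceramide synthases and enzymes of neighbouring steps of sphingolipid synthesis. They are CERS2, CERS3, CERS4, CERS5, CERS6, SPTLC1, SPTLC2, DEGS1, UGCG and ELOVL4. They were chosen by name with their values on these arrays already known, above all the difference of CERS3 between the 2 cell lines, so their own values are a description and carry no test. All 10 had 1 probe set each among 18323 genes that could be named, and 9 of them were among the 15194 genes kept by a filter on dim probe sets. ELOVL4 was not.

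The RNA of each group was hybridised to 1 single-colour array, 4 in all. The groups were HK1EBV cells with 110 µM caffeic acid phenethyl ester (CAPE), HK1EBV cells with 0.1% dimethyl sulfoxide (DMSO), HK1 cells with CAPE at the same dose and HK1 cells with DMSO, all for 24 h. Both are cell lines derived from nasopharyngeal carcinoma, and HK1EBV is taken from its name as HK1 carrying Epstein-Barr virus. CAPE, a compound found in propolis, is known to inhibit NF-κB signalling. Each line is a single line in culture, the labels name no separate cultures, and no group had a replicate. A difference between 2 arrays therefore had no replicate check, and the 2 treatments serve as the only repeat of the line difference, as the 2 lines do for the change with CAPE. Whether an RNA differed per cell or in the number of cells that hold it cannot be told apart in bulk RNA. Values are RMA values, taken to be on a log2 scale, and differences are in log2 units. The array medians lay between 2.23 and 2.27. Values of different genes come from different probes and are not compared with each other as levels.

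As background, ceramide is the lipid from which the other sphingolipids are made. Serine palmitoyltransferase starts the pathway, a ceramide synthase attaches a fatty acid to the sphingoid base, and a desaturase turns dihydroceramide into ceramide. The ceramide synthases differ in the length of the fatty acid they prefer, and CERS3, known from skin and testis, takes very long ones. In the epidermis its products go into the acylceramides of the water barrier, and inherited loss of CERS3 or of other enzymes of that branch causes ichthyosis.

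The labelled cell type was checked against markers. Of 8 epithelial and basal keratinocyte markers, 7 had a probe set and all 7 passed the filter, which kept 15194 of 18323 genes. All 8 markers of terminally differentiated keratinocytes passed it too, so passing says little about the cell type. KRT5 stood at 10.03, 10.25, 9.54 and 9.49 on the HK1EBV CAPE, HK1EBV DMSO, HK1 CAPE and HK1 DMSO arrays. KRT8 lay between 2.26 and 3.05 and KRT19 between 2.43 and 2.91. The leukocyte marker PTPRC lay between 0.46 and 0.49 and the fibroblast marker LUM between 0.45 and 0.51, under the filter value of 0.997. Of the 5 leukocyte markers with a probe set 3 were under the filter, as were 3 of 5 endothelial and 2 of 6 fibroblast markers. The collagen genes of the fibroblast list were above it, COL1A1 at 3.42 to 3.64, COL1A2 at 2.12 to 2.26 and COL3A1 at 2.21 to 2.45, and their part in the results was not tested.

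Because CERS3 differed most of the 10 genes, the sequence before its outermost annotated starts is shown first. RefSeq lists 4 starts for CERS3 on chromosome 15, on the minus strand of GRCh38.p14, and the outermost ones lie 15733 bases apart. Its 1 probe set does not tell which start was used. The 250 bases before the first and the last start are printed below from 5′ to 3′, with the GC box in capitals where one was found (GGGCGG on either strand).
CERS3 first start, chr15:100544684-100544933: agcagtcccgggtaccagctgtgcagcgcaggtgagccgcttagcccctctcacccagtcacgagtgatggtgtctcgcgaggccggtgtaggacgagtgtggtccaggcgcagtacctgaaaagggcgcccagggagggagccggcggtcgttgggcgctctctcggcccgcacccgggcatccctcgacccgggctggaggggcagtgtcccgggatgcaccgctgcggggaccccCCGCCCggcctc
CERS3 last start, chr15:100528951-100529200: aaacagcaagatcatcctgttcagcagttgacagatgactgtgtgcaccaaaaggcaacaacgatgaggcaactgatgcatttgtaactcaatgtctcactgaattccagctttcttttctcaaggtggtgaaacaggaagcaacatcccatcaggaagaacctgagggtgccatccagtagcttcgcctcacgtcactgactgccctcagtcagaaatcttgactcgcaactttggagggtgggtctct

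The windows differ in composition, and those of the first 3 starts are the GC-rich ones. The first has a GC content of 71.6% with 24 CpG pairs, above 82.8% of the 35116 windows of the same length in the RefSeq table, and the last has 48.0% with 4 CpG pairs, above 28.0% of them. The second and the third, not printed, have 77.6% and 75.2%. The GC box occurred 1 time in the first window, 2 times in the second and 0 times in the third and the last, and 42.6% of all windows hold one on either strand. Other motifs were searched on both strands. None of the 4 windows held the TATA box, searched as TATAAA, which 10.7% of all windows hold. None held the box CCAAT, which 32.0% of all windows hold. The AP-1 element was searched as TGANTCA and was likewise found in none, where 6.57% of all windows hold it. The windows of CERS5, CERS6, DEGS1, ELOVL4, SPTLC1, SPTLC2 and UGCG had GC contents between 56.4% and 80.4%. CERS2 and CERS4 have no window shown.

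The first comparison set HK1EBV against HK1. CERS3 was far higher in HK1EBV with both treatments, while the other 9 genes differed by less than 2-fold. CERS3 stood at 5.47 on the HK1EBV CAPE array and 5.55 on the HK1EBV DMSO array, against 2.997 on the HK1 CAPE array and 2.61 on the HK1 DMSO array. Both HK1EBV arrays lay well above both HK1 arrays. Of all genes kept, 33.2% were higher in HK1EBV with both treatments, a looser rule that genes with overlapping lines can also meet. The difference was 2.47 with CAPE, or 5.53-fold, and 2.94 with DMSO, or 7.68-fold, and its mean was 2.70 ± 0.33 (SD, n = 2 treatments), or 6.52-fold. Of the 15194 genes kept, CERS3 had the third highest value of this difference with either treatment and the second highest mean. The HK1 values of CERS3 lay above the filter and above the array medians, but the arrays came without a detection call, so whether the gene is expressed in HK1 cells is not shown.

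**Figure D1:**
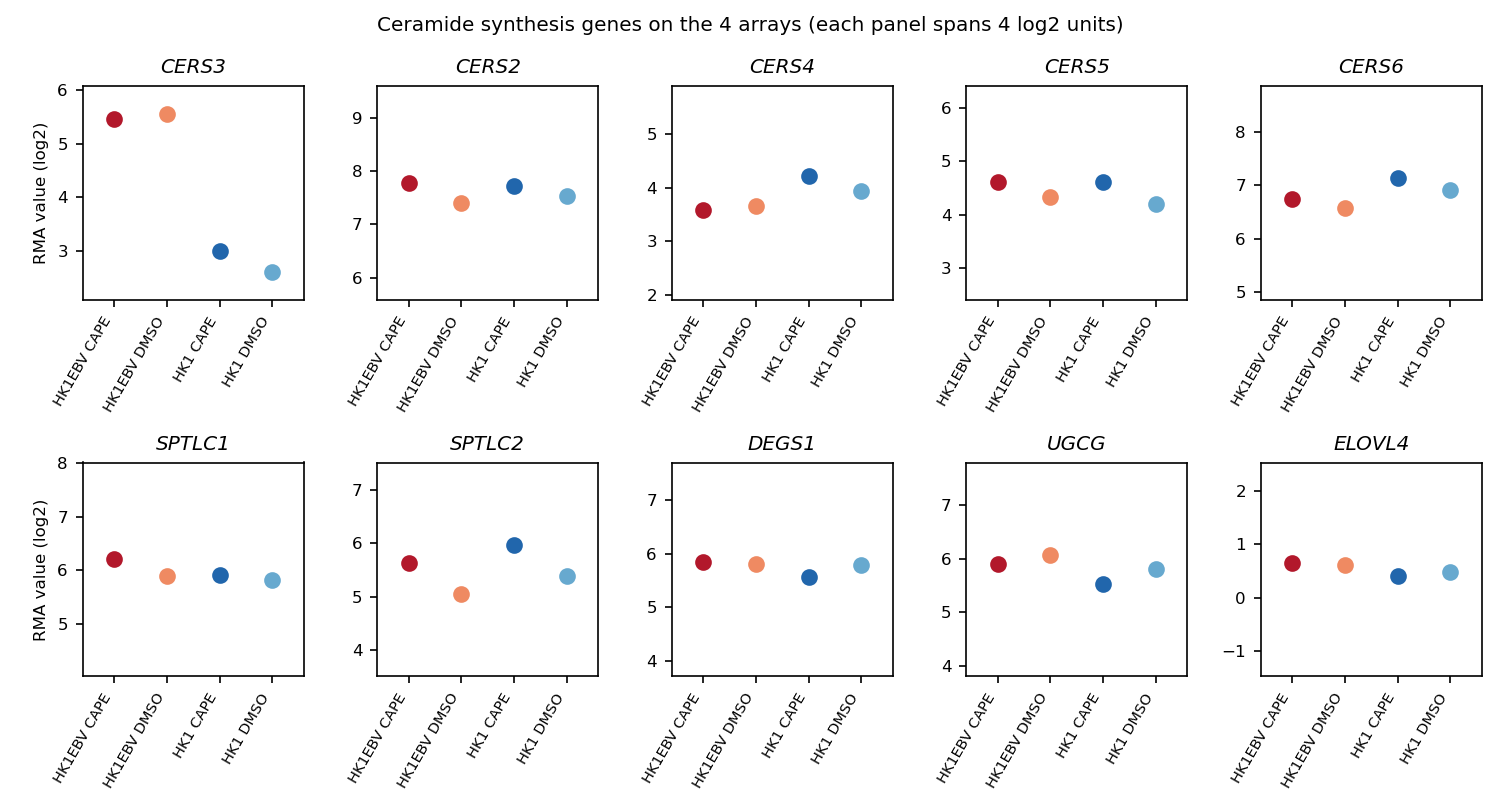
Each panel shows 1 gene, with a point for each of the 4 arrays (HK1EBV CAPE, HK1EBV DMSO, HK1 CAPE, HK1 DMSO) and its RMA value on the log2 scale on the vertical axis, every panel spanning 4 units. CERS3 stands at 5.47 and 5.55 in HK1EBV against 2.997 and 2.61 in HK1, while the points of the other genes lie within 0.92 of each other.

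Counted by fold, 1 of the 10 genes was at least 2-fold apart between the lines with CAPE, where 2.05% of all genes kept were, and 1 with DMSO, where 1.87% were. It was CERS3 both times. Of all genes, 0.382% were at least 2-fold higher in HK1EBV with both treatments. As the genes were chosen on these values, the counts show nothing beyond the choice. At 1.5-fold, CERS4 joined CERS3 with CAPE, for 2 of 10 genes, where 10.1% of all genes kept were that far apart. With DMSO it was CERS3 alone, 1 of 10, where 8.37% were.

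The other ceramide synthases differed by far less than CERS3. CERS4, a synthase of long-chain and very-long-chain ceramides, stood at 3.58 and 3.65 on the HK1EBV CAPE and DMSO arrays, against 4.22 and 3.94 on the HK1 CAPE and DMSO arrays. Its difference was -0.64 with CAPE and -0.28 with DMSO, so it was lower in HK1EBV with both treatments, the opposite direction to CERS3. CERS6, which makes long-chain ceramides, had 6.74 and 6.57 in HK1EBV with CAPE and DMSO, against 7.14 and 6.91 in HK1. Its differences were -0.40 and -0.34. Like CERS4 it was lower in HK1EBV with both treatments, where 31.7% of all genes kept were. CERS2, the widely expressed synthase of very-long-chain ceramides, had 7.78 and 7.40 in HK1EBV with CAPE and DMSO, against 7.71 and 7.54 in HK1, so the lines overlapped. CERS5, a synthase of long-chain ceramides like CERS6, had 4.60 and 4.33 in HK1EBV and 4.62 and 4.20 in HK1, likewise overlapping. The difference of CERS2 was 0.07 with CAPE and -0.14 with DMSO, and that of CERS5 was -0.01 and 0.13.

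**Figure D2:**
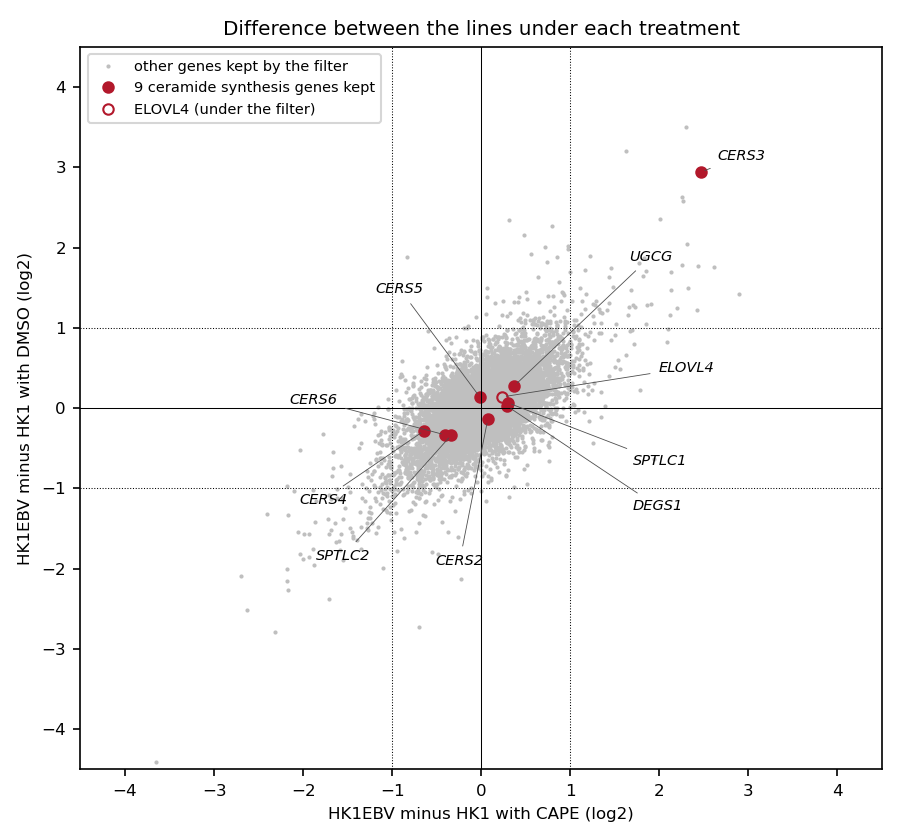
Each point is a gene, with the difference HK1EBV minus HK1 on the log2 scale with CAPE on the horizontal axis and with DMSO on the vertical axis; dotted lines mark 2-fold, grey points are the other genes kept by the filter, red points the 9 ceramide synthesis genes kept and the open circle ELOVL4. CERS3 lies at 2.47 and 2.94 in the upper right part, and the other red points and the open circle lie inside the dotted lines.

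The steps before and after the synthases differed less. SPTLC1 and SPTLC2 encode the subunits of serine palmitoyltransferase, the enzyme that starts the pathway. SPTLC2 stood at 5.64 and 5.05 in HK1EBV with CAPE and DMSO, against 5.98 and 5.39 in HK1, and its difference was -0.33 with CAPE and -0.34 with DMSO. SPTLC1 stood at 6.20 and 5.89 in HK1EBV, against 5.91 and 5.82 in HK1, with differences of 0.30 and 0.07. The 2 subunits thus differed in opposite directions between the lines, each by less than 1.5-fold. UGCG, the glucosylceramide synthase that draws ceramide into glycosphingolipids, stood at 5.90 and 6.08 in HK1EBV with CAPE and DMSO, against 5.52 and 5.80 in HK1. It was higher in HK1EBV by 0.37 and 0.28. DEGS1, the dihydroceramide desaturase, was at 5.85 and 5.82 in HK1EBV, against 5.56 and 5.80 in HK1, and differed by 0.29 and 0.02. ELOVL4, which elongates the fatty acids that CERS3 uses in the epidermis, stood at 0.64 and 0.61 in HK1EBV, against 0.41 and 0.47 in HK1. These 4 values are all below the filter value of 0.997, where a difference may not show.

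Position on the chromosome was looked at next. Among the genes kept, the 4 nearest on each side of CERS3 in RefSeq order differed between the lines by -0.28 to 0.57 with CAPE and by -0.03 to 0.35 with DMSO. The median of their mean differences was 0.08, against 2.70 for CERS3. On one side, from the nearest outwards, the mean difference over both treatments was -0.05 for SPATA41, -0.04 for the metalloproteinase gene ADAMTS17, -0.06 for LOC400464 and 0.08 for DNM1P46. On the other side it was 0.24 for PRKXP1, 0.27 for LINS1, 0.13 for ASB7 and 0.08 for LOC440313. None of these 8 neighbours came near the difference of CERS3. PRKXP1, at 0.70 to 1.40, and SPATA41, at 0.88 to 1.23, lay near the filter value of 0.997, where a difference may not show. LOC400464, at 1.30 to 1.52, LOC440313, at 1.44 to 1.64, and ADAMTS17, at 1.88 to 2.18, did not reach the array medians.

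**Figure D3:**
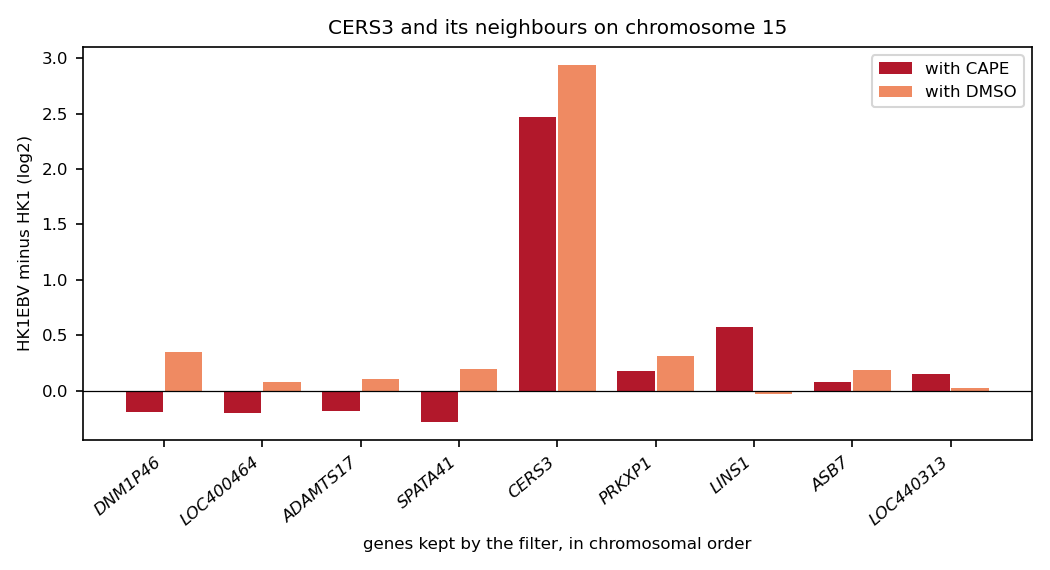
Bars give the difference HK1EBV minus HK1 on the log2 scale with CAPE (dark) and with DMSO (light) for CERS3 and the 4 genes kept on each side, in their order on chromosome 15. The neighbours lie between -0.28 and 0.57, against 2.47 and 2.94 for CERS3.

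The genes most like CERS3 over the 4 arrays were found by the distance between values centred on each gene's mean, over 15185 genes kept that are not among the 10. The nearest was SLC38A5, an amino acid transporter gene, at a distance of 0.35. It stood at 3.70 and 3.89 in HK1EBV with CAPE and DMSO, against 1.44 and 1.31 in HK1. NRSN2, EMP3, CNTN1 and CRAT followed at 0.65, 0.66, 0.71 and 0.82. These genes lie on the X chromosome and on chromosomes 20, 19, 12 and 9. EMP3 was higher in HK1EBV by 2.01 with CAPE and 2.36 with DMSO, and CRAT, the carnitine acetyltransferase gene, by 2.43 and 1.78. CNTN1 stood at 3.15 and 4.18 in HK1EBV with CAPE and DMSO, against 0.86 and 0.67 in HK1. Its HK1 values were under the filter value of 0.997. CNTN1 thus reached the filter only through its HK1EBV values, and its place here is not read as a result. The nearest of the 10 genes to CERS3 was UGCG, at a distance of 2.43 and rank 1970. With 4 arrays this likeness says little more than that a gene was higher in HK1EBV by about the same amount.

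CERS3 is expressed late in epidermal differentiation, so markers of that program were set beside it. The 8 markers of terminally differentiated keratinocytes, among them KRT1, KRT10, IVL, FLG and LORICRIN, had a median difference between the lines of 0.00 with CAPE and -0.02 with DMSO. Their median level was 1.81 and 1.85 in HK1EBV with CAPE and DMSO, against 1.82 and 1.72 in HK1, and in the 4 comparisons of arrays no marker differed by more than 0.54. The members differed in both directions, with KRT10 at 0.24 with CAPE and 0.11 with DMSO, SPRR1B at 0.23 and 0.44 and FLG at 0.02 and 0.54, against KRT1 at -0.11 and -0.29 and IVL, the gene of involucrin, at -0.02 and -0.13. Of the epithelial and basal markers, the basal keratin genes KRT5 and KRT14 were higher in HK1EBV by 0.49 and 0.13 with CAPE and by 0.76 and 0.86 with DMSO. CDH1, KRT8, KRT18 and KRT19 differed by -0.13, -0.18, -0.33 and -0.42 with CAPE, but by 0.40, 0.51, 0.05 and 0.16 with DMSO. EPCAM differed by 0.47 with CAPE and -0.25 with DMSO. The median of the 7 markers was -0.13 with CAPE and 0.40 with DMSO. The part of these markers in the difference of CERS3 was not tested.

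The second comparison set CAPE against DMSO within each line. No gene of the 10 was 2-fold apart in either line, that is 0 of 10, where 1.22% of all genes kept were in HK1EBV and 1.36% in HK1. CERS3 differed far less with CAPE than between the lines. In HK1EBV it stood at 5.47 with CAPE and 5.55 with DMSO, a difference of -0.08, and in HK1 at 2.997 with CAPE and 2.61 with DMSO, a difference of 0.39. The mean of both was 0.15 ± 0.33 (SD, n = 2 lines), so the spread between the lines was larger than the mean.

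SPTLC2 had the largest mean difference of the 10 with CAPE. It was higher by 0.59 in HK1EBV and by 0.59 in HK1, or 1.504-fold in HK1EBV and 1.503-fold in HK1, and it was the 1 gene of the 10 to be at least 1.5-fold higher in both lines, where 1.35% of all genes kept were. That limit was missed in HK1 with arrays shifted to one median, at 0.57, and in HK1EBV with quantile normalization, at 0.58. The values with CAPE were 5.64 in HK1EBV and 5.98 in HK1, and those with DMSO were 5.05 and 5.39. Of all genes kept, 32.1% were higher with CAPE in both lines. SPTLC1, which pairs with it in the enzyme, was higher by 0.32 in HK1EBV and 0.09 in HK1. At 1.5-fold in 1 line, 7.54% of all genes kept were apart in HK1EBV and 7.17% in HK1.

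Among the synthases CERS5 was higher with CAPE by 0.28 in HK1EBV and 0.42 in HK1, CERS2 by 0.39 and 0.17, and CERS6 by 0.17 and 0.23. CERS4 differed by -0.07 in HK1EBV and 0.28 in HK1. UGCG was lower with CAPE in both lines, with differences of -0.19 in HK1EBV and -0.28 in HK1, and DEGS1 differed by 0.04 and -0.24. In each line 7 of the 10 genes were above 0, where 48.2% of all genes kept were in HK1EBV and 53.1% in HK1. They were not the same genes. CERS2, CERS5, CERS6, SPTLC1 and SPTLC2 were above 0 in both lines, where 32.1% of all genes kept were. DEGS1 and ELOVL4, the last under the filter, were so in HK1EBV alone, and CERS3 and CERS4 in HK1 alone. The median over the 9 genes kept was 0.17 in HK1EBV and 0.23 in HK1, against -0.0032 and 0.02 over all genes kept.

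**Figure D4:**
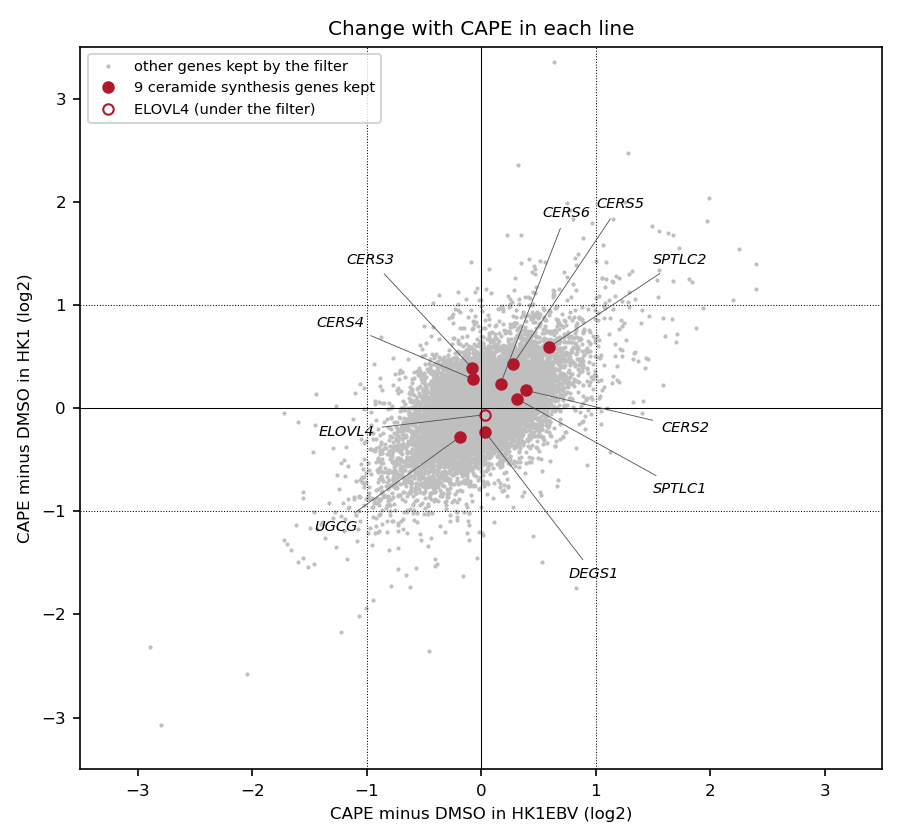
Each point is a gene, with the difference CAPE minus DMSO on the log2 scale in HK1EBV on the horizontal axis and in HK1 on the vertical axis; dotted lines mark 2-fold, and colours are as in the plot of line differences. SPTLC2 lies furthest out of the 10 genes at 0.59 in both lines, and all 10 lie inside the dotted lines.

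The rest of sphingolipid metabolism was read from 11 lists with 89 genes, of which 79 had a probe set and 73 passed the filter. These genes were tested with limma in a fit on all 4 arrays with line and treatment as terms, with Benjamini-Hochberg adjustment over all genes kept. The fit has 1 residual degree of freedom, and its p-values measure only the spread between these 4 arrays. Between the lines 2 of 73 genes were higher in HK1EBV and 1 was lower at an adjusted p under 0.05, where 1.32% of all genes kept were higher, 1.58% lower and 2.9% passed in either direction. One of the higher genes, HACD4, reached the filter only through its HK1EBV values, so it had to differ and its call is not read as a result. With CAPE 0 of 73 passed in limma, where 0.00658% of all genes kept passed. At an unadjusted limma p under 0.05 there were 20 of 73 for CAPE, or 27.4%, against 19.5% of all genes kept, and 22 of 73 between the lines, or 30.1%, against 23.1%. The calls depended on the setting, with 0 between the lines without the filter or without treatment as a term. An alternative added once the data had been seen, which leaves out 57 genes whose residual was 0, gave 11 between the lines, where 11.6% of all genes passed, and 11 for CAPE, where 8.21% passed.

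Fatty acid elongation, which supplies the chains that ceramide synthases attach, held 2 of the 3 genes that passed between the lines. The call of 1 of them, HACD4, is not read as a result. HACD4, a dehydratase of the elongation cycle, stood at 2.82 and 2.21 in HK1EBV with CAPE and DMSO, against 0.69 and 0.51 in HK1. Both HK1 values were under the filter value, so it was above the filter value in HK1EBV alone and the size of its mean difference, 1.91, may be understated. ELOVL6, the elongase that carries palmitate to stearate, stood at 4.17 and 5.12 in HK1EBV, against 4.90 and 6.23 in HK1. It fell by 0.92 ± 0.14 in HK1EBV (moderated SE of limma, n = 2 treatments, adjusted p = 0.0495). With CAPE it differed by -0.95 in HK1EBV and -1.33 in HK1, which did not pass (limma adjusted p = 0.0672). Of the 9 elongation genes kept, 5 were higher in HK1EBV with both treatments, HACD4 among them, and 3 were lower. Of all genes kept, 33.2% were higher with both treatments and 31.7% lower. The list medians were 0.10 with CAPE and 0.07 with DMSO.

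The third gene was HEXA, a subunit of the lysosomal hexosaminidase that breaks down gangliosides. HEXA stood at 5.24 and 4.96 in HK1EBV with CAPE and DMSO, against 4.36 and 4.22 in HK1, and rose by 0.81 ± 0.11 in HK1EBV (moderated SE of limma, n = 2, adjusted p = 0.0464). Of the 9 genes kept of glycosphingolipid breakdown, 6 were higher in HK1EBV with both treatments and 0 lower, against those same shares of 33.2% and 31.7%. With CAPE, 8 of these 9 were above 0 in both lines and 0 below, where 32.1% of all genes kept were above and 29.5% below, with list medians of 0.37 in HK1EBV and 0.23 in HK1, though 0 passed in limma. NEU1, a lysosomal sialidase gene named after its values were seen, stood at 6.23 with CAPE and 5.02 with DMSO in HK1EBV, and at 6.16 and 5.39 in HK1 (limma adjusted p = 0.0830).

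**Figure D5:**
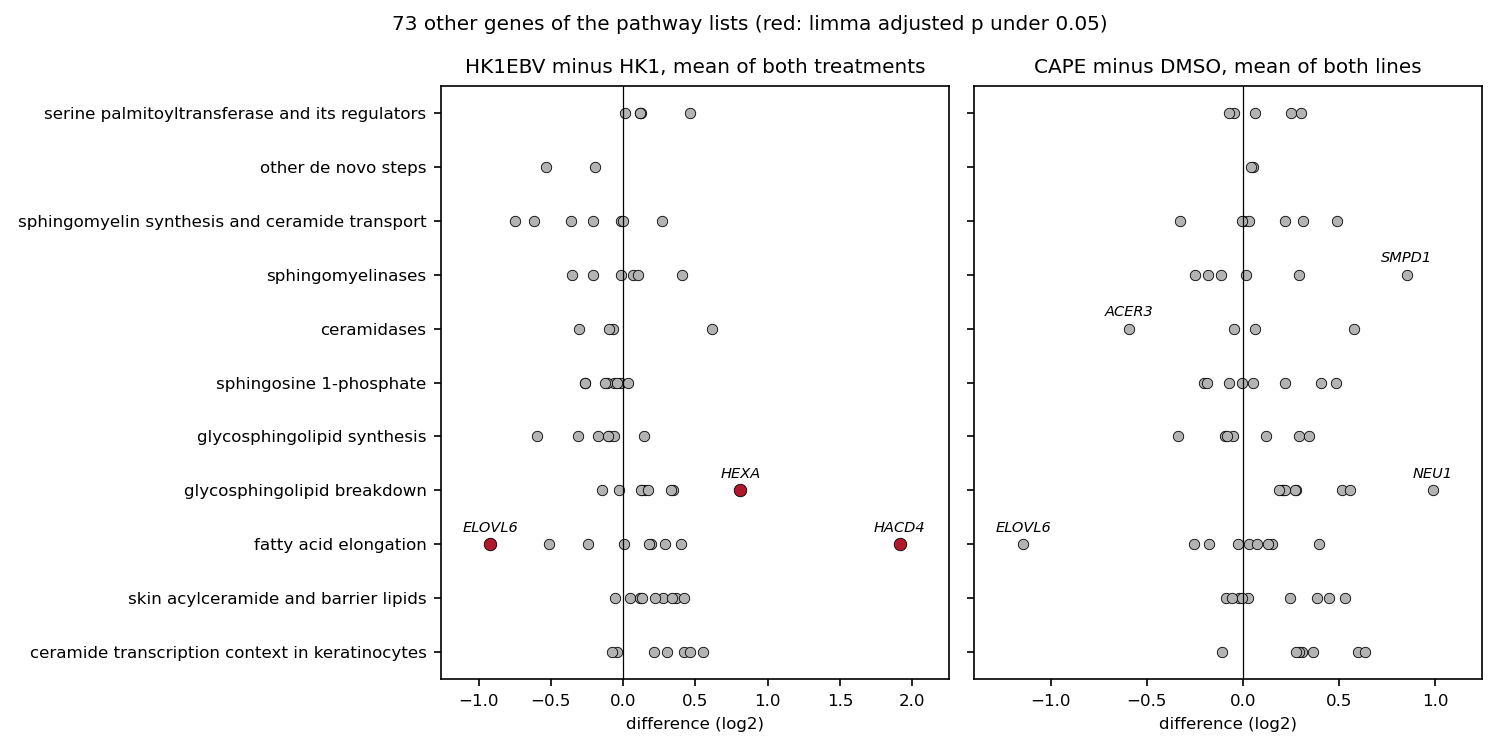
Each point is 1 of the 73 other genes kept, grouped by list, with the mean difference HK1EBV minus HK1 over both treatments on the left and CAPE minus DMSO over both lines on the right, on the log2 scale; red points had a limma adjusted p under 0.05. HEXA at 0.81, ELOVL6 at -0.92 and HACD4 at 1.91, the last above the filter value in HK1EBV alone, are red on the left, and 0 genes are on the right.

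The genes next to the synthases in the pathway did not pass between the lines. KDSR, the reductase between serine palmitoyltransferase and the synthases, lies on chromosome 18 and differed by -0.58 with CAPE and -0.48 with DMSO (limma adjusted p = 0.0796), and DEGS2 by -0.10 and -0.29. SPTSSA, a small activating subunit of serine palmitoyltransferase, differed by 0.37 and 0.55. ORMDL1 and ORMDL3, inhibitors of that enzyme, differed between the lines by 0.18 and 0.03 with CAPE and by -0.16 and 0.21 with DMSO, and with CAPE by 0.42 and 0.21 in HK1EBV and by 0.08 and 0.39 in HK1.

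Of the genes that use ceramide for sphingomyelin, SGMS1 and SGMS2, the sphingomyelin synthases, differed between the lines by -0.63 and -0.999 with CAPE and by -0.60 and -0.50 with DMSO. Of the 7 genes of that list, 5 were lower in HK1EBV with both treatments, where 31.7% of all genes kept were, and 1 higher, where 33.2% were, and 0 passed (lowest limma adjusted p = 0.0611). CERK, the ceramide kinase, differed by -0.45 and -0.27. Of the sphingomyelinases, which release ceramide, SMPD1, the acid sphingomyelinase of the lysosome, stood at 4.29 with CAPE and 3.35 with DMSO in HK1EBV, and at 4.13 and 3.37 in HK1. Its differences of 0.94 and 0.76 did not pass (limma adjusted p = 0.0746). SMPDL3A, a sphingomyelinase-like gene, and SMPD4 differed with CAPE by 0.33 and -0.35 in HK1EBV and by 0.26 and -0.15 in HK1.

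The ceramidases, which split ceramide, differed in both directions. ACER2, of the Golgi, was higher with CAPE by 0.70 in HK1EBV and 0.45 in HK1, and higher in HK1EBV than in HK1 by 0.73 with CAPE and 0.49 with DMSO. ACER3 was lower with CAPE, with differences of -0.52 in HK1EBV and -0.66 in HK1. Neither passed in either comparison, and ACER1, at 1.67 to 1.81, did not reach the array medians. SPHK1, the sphingosine kinase, was higher with CAPE by 0.52 and 0.45, and SGPL1, the lyase that removes sphingosine 1-phosphate, by 0.43 and 0.38 in HK1EBV and HK1. S1PR2, a receptor of that lipid, differed by -0.35 and 0.20. Of glycosphingolipid synthesis, A4GALT differed between the lines by -0.57 with CAPE and -0.62 with DMSO, while B4GALNT1 and ST3GAL5 differed with CAPE by 0.21 and -0.30 in HK1EBV and by 0.48 and -0.37 in HK1.

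Genes that act with CERS3 in the skin barrier differed less between the lines. Of 9 genes kept of acylceramide and barrier lipids, 5 were higher and 1 lower in HK1EBV with both treatments, against 33.2% and 31.7% of all genes kept, and 0 passed, with medians of 0.23 with CAPE and 0.14 with DMSO. ABCA12, a lipid transporter of lamellar granules, differed between the lines by 0.35 with CAPE and 0.33 with DMSO. TGM1, the transglutaminase of the cornified envelope, differed by 0.29 and 0.56, and ALOX12B, an epidermal lipoxygenase, by 0.70 and -0.15. CYP4F22, the hydroxylase that makes the acylceramide chain, was named after its values were seen. It stood at 0.97 and 1.12 in HK1EBV with CAPE and DMSO, against 1.05 and 0.94 in HK1, near the filter value. PNPLA1, at 1.63 to 1.77, and SDR9C7, at 1.66 to 1.89, likewise named after their values were seen, did not reach the array medians. Of 7 genes kept for keratinocyte transcription factors, 4 were higher and 1 lower in HK1EBV with both treatments, against those same shares, and 0 passed. The list medians were 0.43 with CAPE and 0.41 with DMSO. ZNF750 was higher in HK1EBV by 0.68 with CAPE and 0.42 with DMSO (limma adjusted p = 0.0891). OVOL1 differed by 0.43 and -0.01 and PPARD by -0.60 and 0.52.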

How the data were processed

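The deposited values are log2 RMA values, per the submitters' processing notes, which name RMA and no version. Per the labels' protocols, 250 ng of total RNA went into each biotin-labelled cDNA. Base 2 was taken because RMA gives it. The sources used here do not give a shift of the scale, later centring, a genome build or detection calls. Values ran from -0.19 to 11.9, and 4 arrays limit the precision.

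Of 25800 probe sets, 18612 carried a single symbol in GEO's platform annotation, 954 carried several and 6234 carried none. Of the first, 18583 matched RefSeq (GRCh38.p14) by Entrez number, with 0 symbols changed. Each gene was represented by its probe set of highest mean. The filter kept genes whose mean was at or above 0.997 on the log2 scale, which is the 25th percentile over probe sets.

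Pathway genes were tested in R 4.3.3 with limma 3.58.1 (functions lmFit and eBayes, two-sided), taking line and treatment as terms and Benjamini-Hochberg adjustment over all genes kept. Differences between single arrays have no test. The alternatives were other scalings, filters, variance priors and thresholds, the mean of probe sets, no block and a 1.5-fold limit. The genes, lists and tests were chosen with earlier results of these data known.

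Named were, beside the 10 genes, every pathway gene that passed or else up to 3 of a list with the largest mean difference, the 5 genes nearest to CERS3 and its 4 neighbours on each side. Of the lists, 10 genes were not analysed here, SPTLC3, CERS1, ENPP7, ASAH2, SPHK2, S1PR3, HACD1 and TP63 among them. S1PR1, UGT8, GALC, ELOVL2, ELOVL3 and EPHX3 were under the filter. Promoter windows are RefSeq's, and the motifs were chosen once the data had been seen.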

Additional observations from a re-analysis of the deposited data

Results flagged for a closer look

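The difference of CAPE from DMSO had opposite signs in HK1EBV and HK1 for 4 of the 10 genes, and for 35.7% of all genes kept. None of these differences was tested, since each line had 1 array per treatment. The change in HK1EBV minus that in HK1 was -0.47 for CERS3, -0.36 for CERS4, 0.27 for DEGS1 and 0.10 for ELOVL4, the last from values under the filter.

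Among the pathway genes named, differences of opposite sign were seen for SPTSSA, DEGS2, CERK, S1PR2 and TGM1. The change in HK1EBV minus that in HK1 was -0.18 for SPTSSA, 0.18 for DEGS2, -0.18 for CERK, -0.55 for S1PR2 and -0.27 for TGM1, likewise not tested.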

How the results depend on the processing

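Scaling hardly moved the differences of the 10 genes. Over 123 values, recomputed with arrays shifted to one median, with quantile normalization and with probe sets of a gene averaged, the largest shift was 0.06. The averaging could not move a value, because each of the 10 genes had 1 probe set. The sign changed in 2 values near 0, CERS5 with CAPE between the lines (-0.01, or 0.02 with arrays shifted) and DEGS1 with DMSO between the lines (0.02, or -0.0039 with quantile normalization). Shifts exceeded the spread between lines or treatments in 8 values, all of SPTLC2, whose differences lay between 0.57 and 0.61 with CAPE and between -0.36 and -0.30 between the lines. With a limit of 1.5-fold in place of 2-fold, 1 of the 10 genes was apart with CAPE in each line, and 2 between the lines with CAPE.

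The counts of pathway genes in limma moved more. For CAPE, 0 of 73 (0.00658% of all genes kept) became 8 with arrays shifted (6.62% of all), 5 with quantile normalization (4.97%), 8 of 57 with a filter at the 50th percentile (8.33%), 3 with a robust prior (2.49%), 3 at an adjusted p under 0.1 (3.58%) and 11 without genes of zero residual (8.21%). Between the lines, 3 (2.9% of all) became 11 (10.0%), 9 (8.71%), 7 of 57 (12.1%), 7 (6.31%), 10 (9.15%) and 11 (11.6%) in the same order, and 0 with no filter and 0 with no block, where 0 of all genes passed. The cause was not tested. Leaving out an array was not run, since a fit on 3 arrays has no residual degree of freedom. No paired analysis was possible because the labels give no replicate numbers, other than the matching of arrays by line and treatment that the fit already takes as terms. Values near the filter limit what can be seen of ELOVL4 and, in HK1, of HACD4.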
